A study of Mus musculus with 26 samples.

Results

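The genes described here are the 10 genes of MHC class II antigen presentation that were listed by symbol in both gene expression tables of the study. They are H2-Aa, H2-Ab1, H2-Eb1, Cd74, Ciita, H2-DMa, H2-DMb1, H2-DMb2, H2-Oa and H2-Ob. All 10 were found in the table of the deletion experiment, which lists 19404 genes, and in that of the knockdown experiment, which lists 19719. The study sequenced the RNA of pro-B cells cultured from mouse marrow to ask how expression depends on Brg1, the ATPase of SWI/SNF chromatin remodelling complexes, encoded by Smarca4. B220+ bone marrow cells of C57/Bl6 background were grown for 7 days with IL7 and SCF. In the deletion experiment, Brg1F/F x ER-Cre cells (2 libraries) were set against Brg1+/+ x ER-Cre cells (2 libraries). ER-Cre is a tamoxifen-inducible recombinase, and both groups carried it and were kept in 0.3 µM tamoxifen over the final 60 hours. For the knockdown, Rag1-/- cells, which cannot rearrange antigen receptor genes, received a retroviral Brg1 shRNA (3 libraries) or a control shRNA (3 libraries) on days 3 and 4. Infected cells were enriched 2 days later with beads against the hCD25 marker. The promoter that drives ER-Cre, and whether libraries of a group came from separate animals, are not given in the sources used here, so p-values measure the spread between libraries, which may be technical.

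MHC class II molecules present peptides from the endocytic pathway to CD4+ T cells. Dendritic cells, macrophages and B cells carry them, and in the mouse B lineage surface class II appears late in bone marrow development. H2-Aa and H2-Ab1 encode the alpha and beta chains of I-A, and H2-Eb1 the beta chain of I-E. Cd74, the invariant chain, escorts new class II dimers to endosomes. H2-DMa pairs with H2-DMb1 or H2-DMb2 into H2-M, which exchanges the leftover invariant chain peptide for antigenic peptide. H2-Oa and H2-Ob form H2-O, an inhibitor of H2-M found mainly in B cells. Ciita is a coactivator of class II genes, and it docks on a protein complex that sits on X and Y boxes in the promoters.

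The promoter stretches of the members with a Y box match are shown because Ciita acts on this shared architecture. They come from RefSeq on GRCm38.p6, in windows that run from 250 bases before to 50 after a start site. The capitals mark the Y box letters TGATTGG and, where found upstream on the same strand, the X box letters ATGATGC. The letters were chosen with these promoters in view, so the counts of matches among the members are descriptions.
H2-Aa, chr17:34287859-34287935, minus strand: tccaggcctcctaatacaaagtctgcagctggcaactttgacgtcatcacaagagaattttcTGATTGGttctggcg
H2-Eb1, chr17:34305744-34305820, plus strand: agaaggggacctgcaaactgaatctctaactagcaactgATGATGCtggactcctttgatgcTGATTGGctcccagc
H2-DMb1, chr17:34153066-34153142, plus strand: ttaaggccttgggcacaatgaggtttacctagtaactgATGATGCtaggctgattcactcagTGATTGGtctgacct
H2-DMb2, chr17:34145095-34145171, plus strand: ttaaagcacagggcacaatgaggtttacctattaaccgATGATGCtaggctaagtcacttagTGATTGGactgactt
H2-Oa, chr17:34092272-34092348, plus strand: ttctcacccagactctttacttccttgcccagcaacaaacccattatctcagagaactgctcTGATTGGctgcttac
H2-Ob, chr17:34238784-34238860, plus strand: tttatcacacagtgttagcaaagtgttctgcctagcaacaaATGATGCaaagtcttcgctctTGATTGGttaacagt

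Promoter windows were matched by symbol for 7 members, namely these 6 and H2-DMa; H2-Ab1, Ciita and Cd74 are named only. Both strands were searched, and on 1 strand the letters of the X and Y boxes cannot overlap. The 7 members have 8 windows, as H2-DMa has 2, and both of these start upstream of the gene as the deposited table draws it. The Y box letters were found in 6 of the 8 windows, 1 for each member shown, against 7.82% of 32851 windows of the same length. The exact X box letters searched, a short part of that box, were found in H2-Eb1, H2-DMb1, H2-DMb2 and H2-Ob, against 2.46% of all windows. For H2-Aa and H2-Oa this says only that these 7 letters are not in the window, since other letters can form an X box. Both on 1 strand occurred in 39 windows of the whole set, 0.119%, among them those of the same 4 members. The X and Y matches lay 16 bases apart in H2-Eb1, 17 in H2-DMb1, 17 in H2-DMb2 and 14 in H2-Ob. The H2-DMb1 and H2-DMb2 stretches are near-identical around the X box, as the genes are near-identical copies. Reads of this pair could therefore have been split between them in counting, and their separate values are uncertain. The stretch of H2-DMb2 and most of that of H2-DMb1 lie inside the gene bodies as the deposited table draws them, since RefSeq places the start sites further in.

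The deposited tables hold 1 mean per group, in reads divided by library size factors (normalized reads). Most means of the deletion experiment could be resolved into whole reads of each library. For the library totals, the most even solution was assumed where several fitted a gene. The totals so obtained were 11578641 and 8790619 reads in the Brg1-deleted libraries and 10762469 and 10218395 reads in control libraries. These are called the deeper and the shallower library of each group. The 3 libraries of a knockdown group could not be separated. The targeted gene went with the labels, as Smarca4 averaged 6067 normalized reads in Brg1-deleted and 17898 in control cells (adjusted p 0.0008 in the authors' deposited table). It averaged 6743 with the Brg1 shRNA and 13340.1 with the control shRNA (adjusted p 0.0472 in the authors' deposited table). All 15 pro-B cell markers checked were listed in both tables, 8 with a higher and 7 with a lower mean in Brg1-deleted than in control cells, and 5 of them could be resolved per library. Macrophage markers were also present and are given with the results they touch. In such bulk samples, fewer cells of a type and less RNA per cell cannot be told apart.

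None of the 10 genes passed an adjusted p of 0.05 in either experiment by DESeq, in the authors' deposited tables. Over all genes, 1.47% were called after deletion (0.732% higher and 0.742% lower) and 0.218% after knockdown (0.177% higher and 0.0406% lower). All 10 had a higher mean in Brg1-deleted than in control cells, with a median log2 fold change of 0.75 in the authors' deposited table. Among all genes of the experiment 49.9% were above 0 and 50.1% below, and their median was 0.00. With the Brg1 shRNA, 8 members were above and 2 below the control shRNA, and their median in the authors' deposited table was 0.25, beside 49.7% of all genes above 0 and 50.3% below. The lowest p in both experiments belonged to H2-Ob, the only member with an unadjusted p under 0.05 in either. Higher genes with an unadjusted p under 0.05 made up 4.23% of all genes after deletion and 1.67% after knockdown. The other 9 members had p from 0.5261 to 0.7927 after deletion and from 0.2449 to 0.9708 after knockdown in the authors' deposited tables.

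**Figure D1:**
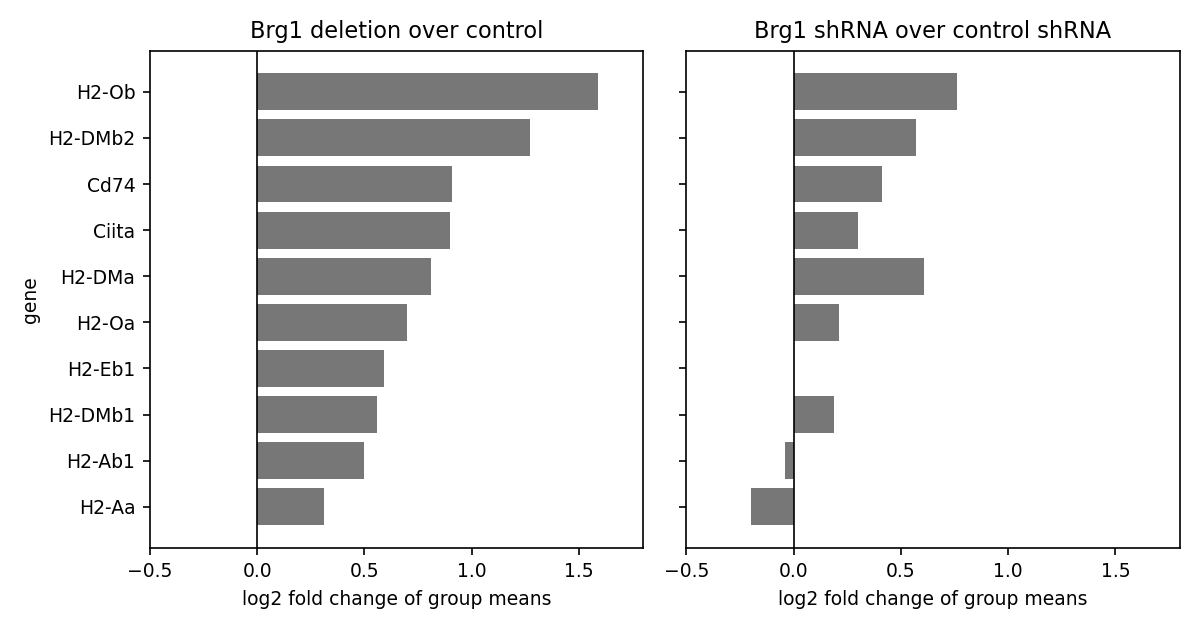
Log2 fold changes of the group means from the authors' deposited tables for the 10 class II genes (rows), with Brg1-deleted over control cells on the left and Brg1 shRNA over control shRNA on the right. All 10 bars lie above 0 after deletion, from 0.31 for H2-Aa to 1.59 for H2-Ob, while the knockdown bars run from -0.20 for H2-Aa to 0.76 for H2-Ob; no bar carries an error because the tables hold none.

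Levels can be compared between genes per length, and here as group means per kb of exon per 1000000 normalized reads. Cd74 stood first in all 4 groups, at 605 in Brg1-deleted and 314 in control cells, and at 343 with the Brg1 shRNA and 249.9 with the control shRNA. H2-Ab1, H2-Ob and H2-Eb1 took places 2 to 4 in every group, and H2-Aa was the fifth in every group. H2-DMa and H2-DMb2 followed in places 6 and 7. H2-Oa, H2-DMb1 and Ciita were the lowest 3 in every group. Ciita, which encodes a regulator rather than a presentation protein, had 8.22 in Brg1-deleted and 4.29 in control cells, and 9.72 with the Brg1 shRNA and 7.65 with the control shRNA. The 2 tables were normalized separately, so levels across them are set side by side without a test. The spread between libraries was known only for deletion, where neighbours in this order with resolved reads overlapped over the libraries. Within each of the 4 deletion libraries, H2-Ab1 was the highest per kb of the 8 members resolved.

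**Figure D2:**
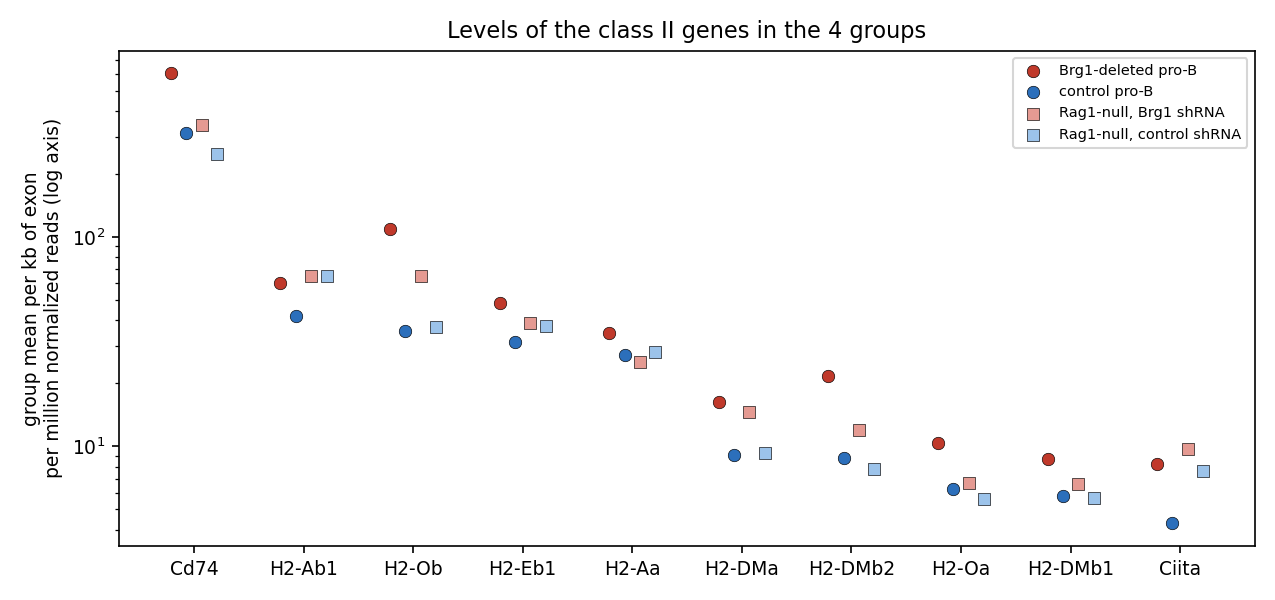
Group means of the 10 class II genes per kb of exon per 1000000 normalized reads (log axis), for Brg1-deleted and control pro-B cells (circles) and for Rag1-null cells with Brg1 or control shRNA (squares). Cd74 lies between 249.9 and 605 in every group, and the Ciita means lie between 4.29 and 9.72.

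Of the classical chains, the alpha chain gene H2-Aa (ENSMUSG00000036594, chr17:34282744-34287827 on mm10) had 1219.9 and 96.5 normalized reads in the deeper and shallower Brg1-deleted library, against 89.7 and 973 in the deeper and shallower control library. Each group thus held 1 high and 1 low library, and the groups overlapped. The authors' means were 658.2 in Brg1-deleted and 531.2 in control cells, a log2 fold change of 0.31 with p 0.7927 in the authors' deposited table. Its partner H2-Ab1 (chr17:34263209-34269418) had 1697 and 302 normalized reads in Brg1-deleted libraries, against 198 and 1215 in control libraries. The same libraries were high and low, and the groups again overlapped. The log2 fold change of H2-Ab1 was 0.50 with p 0.6744 in the authors' deposited table. H2-Eb1 (chr17:34305883-34316199) had 1058 and 91.9 normalized reads in Brg1-deleted libraries, against 48.8 and 715 in control libraries, with a log2 fold change of 0.59 and p 0.69 in the authors' deposited table. In each of the 3 chains, the lowest library of all was the deeper control and the highest the deeper Brg1-deleted library.

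In the knockdown experiment the same chains lay close to even. H2-Aa averaged 408.2 normalized reads with the Brg1 shRNA and 469 with the control shRNA, a log2 fold change of -0.20 with p 0.5529 in the authors' deposited table. For H2-Ab1 the means were 919 with the Brg1 shRNA and 943.5 with the control shRNA. H2-Eb1 stood at 393.7 with the Brg1 shRNA and 392.8 with the control shRNA. No spread between libraries is known for these means.

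The invariant chain gene Cd74 (chr18:60803848-60812646 on mm10) averaged 8631 normalized reads in Brg1-deleted and 4583 in control cells, a log2 fold change of 0.91 with p 0.6084 in the authors' deposited table. Its reads were too many for 1 solution per library. In the control group they came to 6771 and 2396 in the deeper and shallower library, or to 471 and 8695. In the Brg1-deleted group, 5 solutions were possible, with libraries from 1.05- to 20.33-fold apart. With the Brg1 shRNA Cd74 averaged 4159.7 normalized reads, against 3129 with the control shRNA, a log2 fold change of 0.41 with p 0.7942 in the authors' deposited table.

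The coactivator gene Ciita (chr16:10488178-10527564 on mm10) had 791 and 82.6 normalized reads in the deeper and shallower Brg1-deleted library, against 41 and 426 in the control libraries. The high and the low libraries were the same as for the chains. The authors' means were 437 in Brg1-deleted and 233.6 in control cells, a log2 fold change of 0.90 with p 0.5727 in the authors' deposited table. The knockdown means were 439.5 with the Brg1 shRNA and 356.8 with the control shRNA, a log2 fold change of 0.30 with p 0.9708 in the authors' deposited table. Ciita, Cd74 and H2-Oa carry the authors' mark for confounded genes, whose meaning is not given in the sources used here. Of the genes called in other lists, Irf8, H2-T23, Prtn3 and Lck carry it after deletion, as do all 3 called after knockdown, namely March1, Ms4a1 and Cd55.

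The complex on which Ciita docks did not show this split. The summed level of its 7 genes (the RFX subunits, Creb1 and the NF-Y subunits) was 6379 and 6528 normalized reads in the deeper and shallower Brg1-deleted library, against 6455 and 6082 in the control libraries. None of the 7 was called in either experiment, with medians of 0.01 after deletion and 0.00 after knockdown. Creb1, a bZIP factor that binds the X2 box, had 1625 and 1626 normalized reads in Brg1-deleted libraries, against 1676 and 1557 in control libraries. Nfya, the DNA-binding subunit of NF-Y, had 1531 and 1482 in Brg1-deleted libraries and 2074 and 1787 in control libraries, with p 0.287 in the authors' deposited table. Rfx5 and Rfxank, subunits of the X box factor RFX, are named after their values were seen. Rfx5 had 920.1 and 1088 normalized reads in Brg1-deleted libraries, against 527 and 519 in control libraries. The groups did not overlap, but 24.6% of 16982 genes were likewise higher without overlap. The log2 fold change of Rfx5 was 0.94 and the authors' deposited table gave p 0.0078 before and 0.2309 after adjustment. Rfxank had 461 and 363 in Brg1-deleted libraries, against 235 and 243 in control libraries, and 0.4943 was the adjusted p in the authors' deposited table. The Rfx5 means in the knockdown were 494 with the Brg1 shRNA and 388 with the control shRNA (p 0.4611 in the authors' deposited table), and those of Rfxank were 209.9 with the Brg1 shRNA and 209.6 with the control shRNA.

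**Figure D3:**
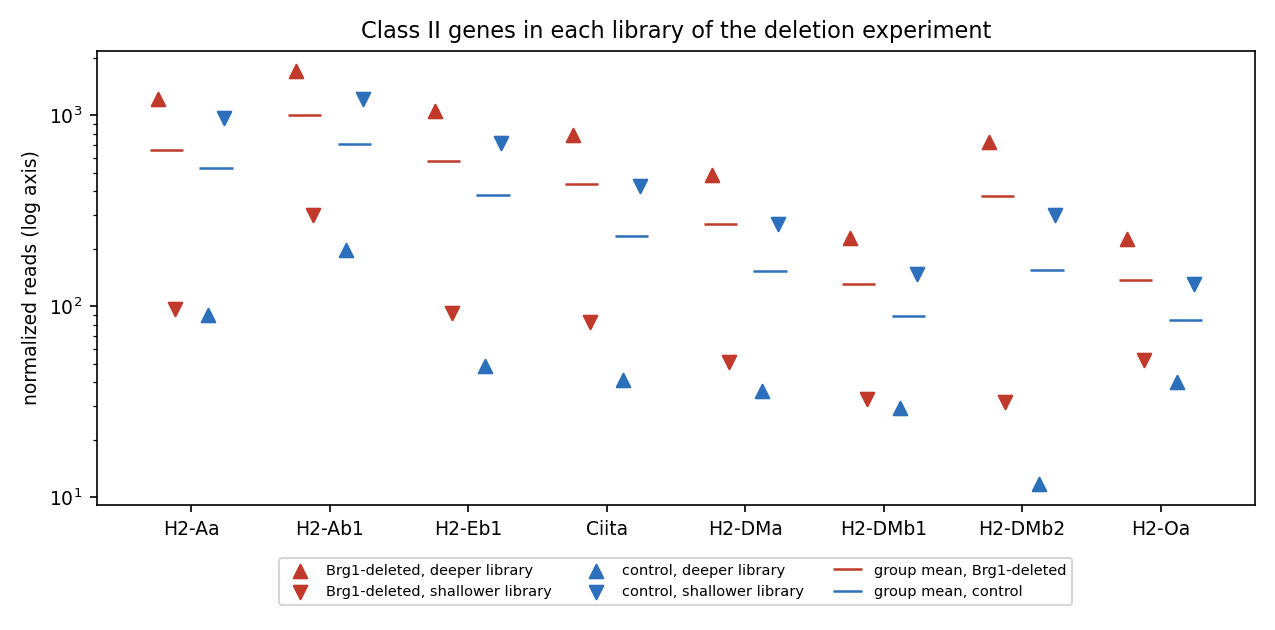
Normalized reads (log axis) of the 8 class II genes whose reads could be resolved per library, in the deeper and shallower Brg1-deleted libraries (red, up and down triangles) and the deeper and shallower control libraries (blue, same signs); short lines are group means of 2 libraries. In every gene the deeper Brg1-deleted and the shallower control library lie above the other library of their own group.

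The peptide exchange genes showed the same split. H2-DMa (chr17:34135182-34139101 on mm10) had 486 and 51.2 normalized reads in the deeper and shallower Brg1-deleted library, against 36.1 and 271 in the control libraries. Its log2 fold change was 0.81 after deletion (p 0.5963) and 0.61 after knockdown (p 0.2449) in the authors' deposited tables. H2-DMb1 (chr17:34153072-34160223) had 228 and 32.6 normalized reads in Brg1-deleted libraries, against 29.3 and 148 in control libraries. Its log2 fold change was 0.56 after deletion and 0.19 after knockdown in the authors' deposited tables. H2-DMb2 (chr17:34143307-34151553) had 721 and 31.4 normalized reads in Brg1-deleted libraries, against 11.7 and 299 in control libraries. This was the widest split among the members resolved, 22.9-fold between the Brg1-deleted and 25.6-fold between the control libraries. The log2 fold change of H2-DMb2 was 1.27 after deletion (p 0.5261) and 0.57 after knockdown (p 0.5496) in the authors' deposited tables.

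The subunits of H2-O differed in level. H2-Oa (chr17:34092340-34095234 on mm10) had 224 and 52.3 normalized reads in the deeper and shallower Brg1-deleted library, against 40 and 130.1 in the control libraries. It had the narrowest split of the 8 resolved members, 4.28-fold between Brg1-deleted and 3.25-fold between control libraries. H2-Oa had a log2 fold change of 0.70 after deletion (p 0.5307) and 0.21 after knockdown (p 0.4548) in the authors' deposited tables.

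H2-Ob (chr17:34238903-34245907 on mm10), the beta subunit of the same inhibitor, averaged 3494 normalized reads in Brg1-deleted and 1158 in control cells. This 3.02-fold difference, log2 1.59, was the largest of the 10 members, and the authors' deposited table gave p 0.0232 before and 0.4347 after adjustment. The control libraries held 786 and 1529 normalized reads of H2-Ob, with the shallower one higher as for the 8 resolved members. They lay 1.95-fold apart, against 3.25- to 25.6-fold for those 8. The Brg1-deleted libraries held 4562 and 2427, both above the controls, or 381 and 6607, which would overlap them; the deposited mean allows both. As a description, 34 resolved genes with a Brg1-deleted mean over 100 had Brg1-deleted libraries over 10-fold apart, and the lowest p among these was 0.1145 in the authors' deposited table. H2-Ob itself is not resolved, so this set does not decide between its solutions. After knockdown H2-Ob averaged 1766 normalized reads with the Brg1 shRNA and 1043 with the control shRNA. This 1.69-fold difference was the largest of the members there too, and the authors' deposited table gave p 0.0219 before and 1 after adjustment.

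Seen together, all 8 resolved members had 1 order of libraries, with the deeper Brg1-deleted first, then the shallower control, the shallower Brg1-deleted and the deeper control. The summed level of the 8 was 6425 and 741 normalized reads in the deeper and shallower Brg1-deleted library, against 494 and 4177 in the control libraries. Libraries of 1 group were 4.28- to 22.9-fold apart in Brg1-deleted and 3.25- to 25.6-fold apart in control cells. In 0 of the 8 were the groups free of overlap, whereas 48.2% of 16982 genes had no overlap in either direction and 24.6% were higher without overlap. Of the 8, 7 were over 4-fold apart in both groups with these same libraries high, as were 1.15% of 10130 protein-coding genes with a mean level of at least 20 (117 genes). With limma on the recovered reads, the 8 had log2 fold changes from 0.22 to 1.33 with standard errors from 0.86 to 1.99, and adjusted p from 0.787 to 0.964. None of the 8 had an unadjusted p under 0.05 in that fit, where 16.9% of genes did and none had an adjusted p under 0.05. Taken from group means rather than from that fit, the median log2 fold change of the 8 was -1.54 without the deeper Brg1-deleted library. Without the deeper control library it was -0.10. Without the shallower Brg1-deleted library it was 1.43 and without the shallower control library 2.89, so the sign and the size of the difference between the groups rested on single libraries.

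**Figure D4:**
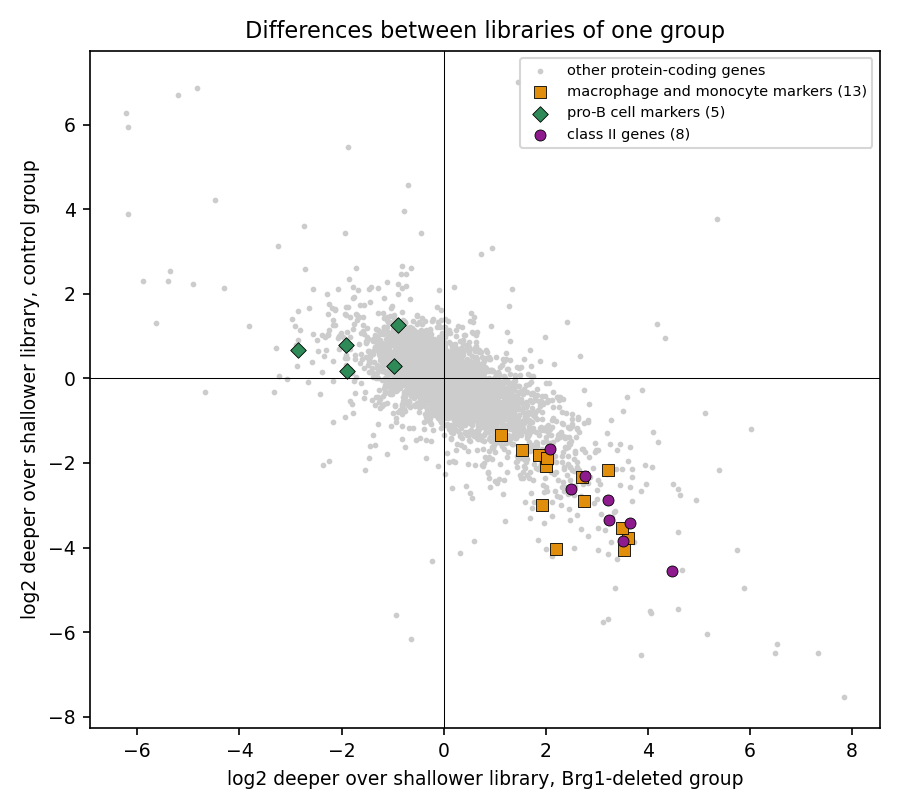
Log2 ratio of the deeper over the shallower library in the Brg1-deleted group (x axis) and the control group (y axis) for 10130 protein-coding genes with a mean level of at least 20 normalized reads, of which class II genes (purple circles), macrophage and monocyte markers (orange squares) and pro-B cell markers (green diamonds) are coloured. The 8 class II genes lie at the lower right, with medians of 3.23 and -3.11, among those macrophage and monocyte markers that reach the minimum level (13 of 14), and the 5 resolved pro-B cell markers lie at the upper left.

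Among markers of other cells that carry class II, those of macrophages and monocytes moved with these libraries. All 14 were higher in the deeper Brg1-deleted and in the shallower control library. Among 10130 protein-coding genes with a mean level of at least 20, 31.7% were so. Of the 14 markers, none was at 0 in any library. Their summed level was 5245 and 1954 normalized reads in the deeper and shallower Brg1-deleted library, against 2602 and 7699.8 in the control libraries. Lyz2, the myeloid lysozyme, had 3335 and 1527 in Brg1-deleted libraries, against 2086 and 5288 in control libraries. Csf1r, the receptor of macrophage colony-stimulating factor, had 683 and 186 in Brg1-deleted libraries, against 259 and 913 in control libraries. Cd68, a lysosomal glycoprotein of macrophages, had 314 and 77.9 in Brg1-deleted libraries, against 80 and 340.3 in control libraries. Lyz2 made up most of the macrophage sum and had the narrowest split in both groups. C1qb, a complement gene of macrophages named after its values were seen, had 117 and 9.3 in Brg1-deleted libraries, against 11.7 and 210.2 in control libraries. Gene by gene, the 14 markers were 2.18- to 22.3-fold apart in Brg1-deleted cells (median 6.06) and 2.54- to 40-fold apart in control cells (median 7.04). The 8 class II genes, at 4.28- to 22.9-fold (median 9.55) in Brg1-deleted and 3.25- to 25.6-fold (median 8.96) in control cells, covered a like range. The order of the high libraries also differed. The shallower control library held the highest summed macrophage level, and the deeper Brg1-deleted library the highest summed class II level. The part of these markers' cells in the class II result was not tested.

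Of 12 dendritic cell markers, 7 were higher in the same libraries and 1 was lower in both, beside 31.7% of the 10130 protein-coding genes higher there. Some of the 7 had few reads, such as Clec9a at 3.9 and 4.0 in control libraries. The 11 markers above 0 in every library were a median 1.88-fold apart in Brg1-deleted and 1.54-fold in control cells. For the class II genes these medians were 9.55 and 8.96. The dendritic cell markers differed less in sum as well. Their summed level was 2704 and 1797 normalized reads in the deeper and shallower Brg1-deleted library, against 1281 and 2309 in the control libraries, most of it from Cst3, the secreted cystatin C. Bst2, a surface protein of plasmacytoid dendritic cells that interferon induces, had 330 and 157 in Brg1-deleted libraries, against 178 and 366 in control libraries. Siglech, another plasmacytoid marker, had 111 and 40.7 in Brg1-deleted libraries, against 34.1 and 54 in control libraries. Of 2 markers named after their values were seen, Itgax, which encodes CD11c, had 32 and 29.1 in Brg1-deleted libraries, against 19.5 and 33 in control libraries. Batf3, a factor needed by cross-presenting dendritic cells, was at 0 in the deeper control library, and no other marker of that list was at 0 in any library. The 5 pro-B cell markers that could be resolved went the other way in both groups. Their sum was 1466 and 5009.7 in Brg1-deleted libraries, against 5490.4 and 3553 in control libraries. Il7r, the receptor for the IL7 of the culture and also named after its values were seen, had 651 and 2442 in Brg1-deleted libraries, against 1801 and 1039.8 in control libraries. The 8 resolved neutrophil and granule genes summed to 62.2 and 665 in Brg1-deleted libraries, against 1458 and 888 in control libraries. Mpo, the most abundant of the 9 listed, could not be resolved and averaged 513 in Brg1-deleted and 2177 in control cells. Of the 9, 3 (Prtn3, Ctsg and Elane) fell after deletion in the authors' deposited table, beside 0.742% of all genes. Prtn3, a granule protease, averaged 81.4 in Brg1-deleted and 443 in control cells. The part of these differences in the class II levels was not tested either.

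**Figure D5:**
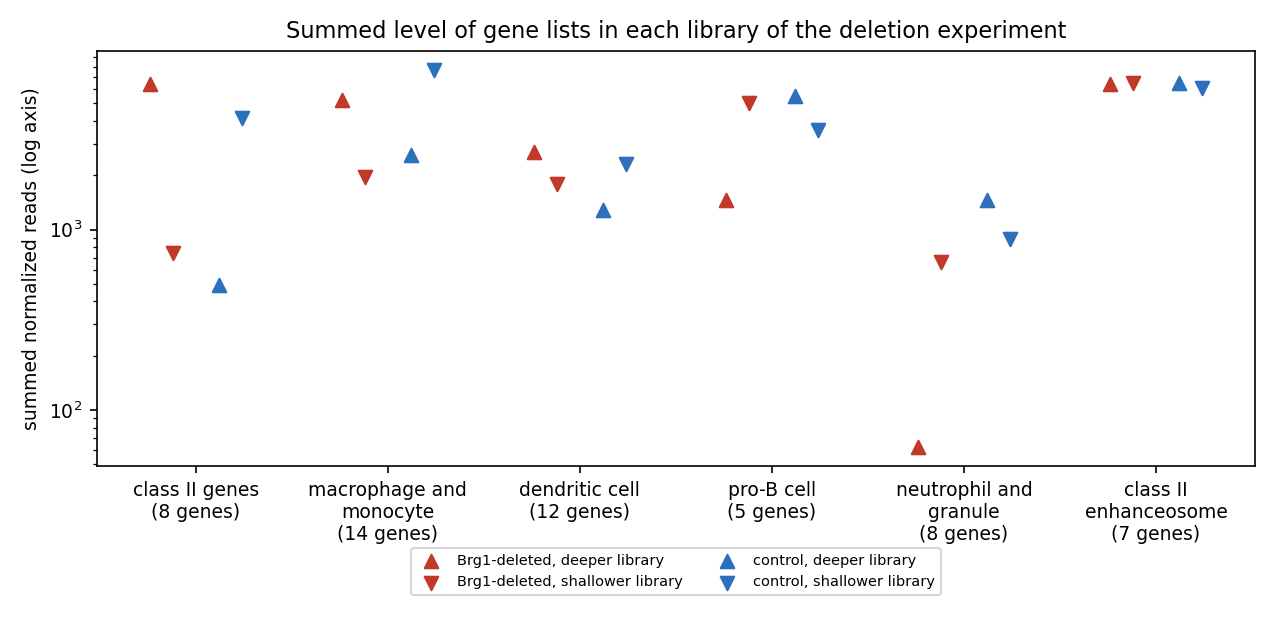
Summed normalized reads (log axis) of 6 gene lists in the deeper and shallower Brg1-deleted libraries (red, up and down triangles) and the deeper and shallower control libraries (blue, same signs), over the genes of each list with resolved reads. The class II sum runs from 494 to 6425, while that of the 7 genes of the class II enhanceosome, the complex that Ciita binds, stays between 6082 and 6528.

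In the knockdown experiment the summed macrophage level was far lower, at 412 normalized reads with the Brg1 shRNA and 348 with the control shRNA, against 3599 in Brg1-deleted and 5151 in control cells of the deletion experiment. The summed level of the 10 class II genes was 8627 with the Brg1 shRNA and 6725 with the control shRNA, against 15708 in Brg1-deleted and 8076 in control cells. Cd74 and H2-Ob, the members not resolved per library, together made up most of each of these sums. C1qa, a complement gene of macrophages named after its values were seen, averaged 0.605 with the Brg1 shRNA and 0.563 with the control shRNA, against 13.5 in Brg1-deleted and 20 in control cells of the deletion experiment. These levels come from tables normalized separately and were set side by side without a test.

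Among 17 regulators upstream of Ciita, 2 rose after deletion and none fell, with a median log2 fold change of 0.37 in the authors' deposited table. Over all genes, 0.732% were called higher and 0.742% lower after deletion. Bcl6, a transcriptional repressor needed for the germinal centre programme, had 556 and 447 normalized reads in Brg1-deleted libraries, against 57.5 and 145 in control libraries (log2 2.31, adjusted p 4.97e-06 in the authors' deposited table). Irf8, a factor of B and myeloid cells that acts on Ciita promoters, averaged 6601 in Brg1-deleted and 2730.2 in control cells (log2 1.27, adjusted p 0.0153 in the authors' deposited table). None of the 17 was called after knockdown, where the median was 0.26, Bcl6 had a log2 fold change of 1.59 (p 0.0217) and Irf8 one of 0.64 (p 0.0267) in the authors' deposited table. The repressor of Ciita in plasma cells, Prdm1, had 18.1 and 18.6 normalized reads in Brg1-deleted libraries, against 9.75 and 24 in control libraries, and is named after its values were seen.

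Of 12 genes of peptide loading and class II turnover, none was called after deletion and 1, March1, rose after knockdown. Over all genes, 0.177% were called higher after knockdown. March1, a ubiquitin ligase that removes surface class II, averaged 49.5 normalized reads with the Brg1 shRNA and 12.3 with the control shRNA (log2 2.01, adjusted p 0.0472 in the authors' deposited table). March1 carries the authors' confounded mark, so it is not called where marked genes are left out. In the deletion experiment March1 had 331 and 18.6 in Brg1-deleted libraries, against 19.5 and 86.1 in control libraries, with the same libraries high as for the class II genes. Its p there was 0.4159 in the authors' deposited table. Lgmn, an asparagine endopeptidase of endosomes named after its values were seen, had 1768 and 876 in Brg1-deleted libraries, against 419 and 484 in control libraries. Its log2 fold change was 1.55 after deletion (adjusted p 0.5338) and 1.71 after knockdown (adjusted p 1) in the authors' deposited tables. Ifi30, the thiol reductase of endosomes, had 1189 and 3226 in Brg1-deleted libraries, against 1179 and 3582 in control libraries, so that the shallower library was high in both groups. Ctsd, an aspartic protease, had 2829 and 1383 in Brg1-deleted libraries, against 1240.2 and 2740 in control libraries.

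H2-Eb2, a further class II beta chain gene of the cluster named after its values were seen, was also split by library, with 76.9 and 22.1 normalized reads in Brg1-deleted libraries, against 5.85 and 35 in control libraries. Brd2, a bromodomain gene that lies within the cluster and is not a class II gene, averaged 4412 in Brg1-deleted and 4023 in control cells, with p 0.694 in the authors' deposited table. Of 21 genes of class I presentation, 1 rose after deletion, beside 0.732% of all genes, and none was called after knockdown. The medians were 0.06 after deletion and 0.03 after knockdown. The called gene was H2-T23, which encodes the nonclassical molecule Qa-1. It had 2973 and 2703 normalized reads in Brg1-deleted libraries, against 935 and 1266 in control libraries (log2 1.37, adjusted p 0.009 in the authors' deposited table). The 12 class I genes that could be resolved summed to 15827 and 17803 in Brg1-deleted libraries, against 12607 and 14818 in control libraries.

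No co-stimulation gene of 12 and no interferon response gene of 20 was called in either experiment. The median log2 fold change was 0.05 after deletion and 0.18 after knockdown for co-stimulation, and 0.61 after deletion and 0.11 after knockdown for the interferon response. Cd24a, a surface glycoprotein, was the most abundant co-stimulation gene, at 16597 normalized reads in Brg1-deleted and 12687 in control cells. Of the interferon response genes, 17 of 20 were higher in the deeper Brg1-deleted and the shallower control library, as were 31.7% of the 10130 protein-coding genes. Their summed level was 1.21-fold apart in Brg1-deleted and 1.35-fold apart in control libraries, and the median gene was 2.01-fold apart in Brg1-deleted and 3.46-fold apart in control libraries. Irf1, a transcription factor that interferon gamma induces and that acts on Ciita, had 777 and 1172 in Brg1-deleted libraries, against 797 and 709.5 in control libraries, and p was 0.3393 in the authors' deposited table.

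Of 9 markers of later B cells, none was called after deletion and 2 rose after knockdown, beside 0.177% of all genes. The medians were 1.33 after deletion and 1.32 after knockdown. Ms4a1, which encodes CD20, averaged 2351 normalized reads with the Brg1 shRNA and 853 with the control shRNA (adjusted p 0.0016 in the authors' deposited table). Cd55, a complement regulator, averaged 517 with the Brg1 shRNA and 182 with the control shRNA (adjusted p 0.0043 in the authors' deposited table). Both carry the confounded mark, and no call is left in this list without marked genes. In the deletion experiment Cd55 had 3776 and 619 in Brg1-deleted libraries, against 166 and 658 in control libraries, again with the same libraries high within each group as for class II. Of this list's 7 resolved genes, 4 were higher in the deeper Brg1-deleted and the shallower control library, beside 31.7% of the 10130 protein-coding genes. In both groups 1 of the 7 was lower in these libraries. The 7 summed to 6067 and 1783 in Brg1-deleted libraries, against 1026 and 1510.1 in control libraries. Cd55 made up most of the 6067. The part of these genes in the class II levels was not tested. Cd79b, the signalling chain of the B cell receptor and of the pro-B list, rose after deletion (20542 normalized reads in Brg1-deleted and 8045 in control cells, adjusted p 0.0106 in the authors' deposited table). Of the 7 T cell markers listed, Lck and Thy1 fell after deletion in the authors' deposited table, beside 0.742% of all genes. Thy1 averaged 42.2 in Brg1-deleted and 266 in control cells. The Cd3 genes of the list had few reads, with Cd3d highest in control cells at 9.92 and at 2.18 in Brg1-deleted cells. After knockdown Lck averaged 427 with the Brg1 shRNA and 273 with the control shRNA, and Thy1 averaged 136 with the Brg1 shRNA and 204 with the control shRNA.

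By likeness of the 2 log2 fold changes to the members' medians, the nearest of 4457 protein-coding genes with every group mean at or above 382 normalized reads included Ulk2, Ctps2, Sharpin and Mbd2. Their distances ran from 0.014 to 0.025 on the log2 scale, over 2 comparisons. None of the 4 was called in either of the authors' deposited tables. By a second measure, chosen after the values were seen, the 10 genes nearest to the members' median library ratios were Slc7a8, C3ar1, Igf1, Ccl2, Slfn5, Anpep, Gm6563, Mcpt4, Lgals3 and Basp1, over 4 libraries and 10130 genes. C3ar1, the receptor of complement C3a, had 270.4 and 25.6 normalized reads in Brg1-deleted libraries, against 28.3 and 257 in control libraries. Lgals3, galectin-3, had 1406 and 174 in Brg1-deleted libraries, against 184 and 1333 in control libraries.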

How the data were processed

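Per the labels' protocols, the libraries hold polyadenylated RNA with strands marked by dUTP; 10 of them, in 4 groups, were used; 16 other samples were not analysed here. The submitters' processing notes name CASAVA, RSEM and DESeq, with no versions, and the mm10 build. Per the file headers and values, the authors' group means are a signal in normalized reads, reads over library size factors. The log2 fold change, the p-value, its Benjamini-Hochberg adjusted value and the linear fold were deposited by the authors, the fold as a signed score that is inverted and negative where the depleted group is lower, and exon length was read from their tables.

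The tables hold no values per sample, so the calls are the authors' at an adjusted p under 0.05. Each deletion mean is a sum of whole reads of 2 libraries, each worth a fixed step. Within a tolerance of 6e-05, whole reads solved 100% of 19404 genes in both groups, 18560 (95.7%) in only 1 way. The recovered libraries carry no replicate number. limma 3.58.1 (R 4.3.3) with a mean-variance trend was run on log2 of reads plus 0.5 over size factor, for resolved genes whose mean level was 1 or more. Both steps were tested on simulated data. The simulated libraries of a group varied far less than those of the members, so the fit was not tested at such a spread. Library ratios used a pseudocount of 1. Promoter letters were counted in the RefSeq windows. Python 3.11.15, pandas 2.3.3, numpy 2.4.6, scipy 1.17.1 and matplotlib 3.10.9 were used.

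The members and lists were chosen with earlier results of these data known, so lists are described by counts and medians. Genes were named by rule: Smarca4, the members, up to 4 called genes per list and experiment, up to 3 by level from lists with none called or of macrophages and dendritic cells, and the 5 nearest by fold changes, of which 1 is not reported here. Alternatives were other thresholds, adjustments, filters, scalings and sets of members or libraries.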

Additional observations from a re-analysis of the deposited data

How the results depend on the processing

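None of the 10 members was called in either experiment under any alternative run, among them an adjusted p of 0.1, adjustment over listed, protein-coding, unmarked or better expressed genes, and limma on recovered reads, which called none of the 8 resolved members, also without each library in turn, where a lone library was assumed to vary like the other group. The median log2 fold change of the members after deletion was 0.75. Taken from group means without 1 library in turn, that of the 8 resolved members ranged from -1.54 to 2.89, against 0.65 with all 4 libraries. It reversed to -1.54 without the deeper Brg1-deleted library and to -0.10 without the deeper control library; the alternative leaves 1 library in that group, and the 8 members differ over 3-fold between libraries of a group. Without the shallower control library, limma called 46 genes and gave 4 members an unadjusted p under 0.05, with 0.298 the lowest adjusted p among them. With pseudocounts of 1 and 10, other scaling or centring, and without single members, the medians after deletion and knockdown kept their sign. Called genes over all lists were 9 after deletion and 5 without genes marked confounded, and 3 after knockdown and 0 without marked genes; fewer genes are tested there. No paired analysis was possible because the columns carry group means and no replicate number. Leaving out a knockdown library was not run, as its 3 libraries could not be separated. Cd74 and H2-Ob could not be resolved per library, which limits what can be said of their spread.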
